A study of Homo sapiens with 6 samples.

Results

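The genes described here build the machinery that ends transcripts of RNA polymerase II (RNAP2): the factors that cleave and polyadenylate pre-mRNA and release the polymerase, and the subunits of the Integrator complex. The list holds 38 genes, taken by symbol from the 61541 genes of the count table, and all 38 were found. Of these, 25 belong to cleavage, polyadenylation and termination and 13 to Integrator. The data were bulk RNA-seq of H9, a human cutaneous T-cell lymphoma line, wild type in each of the 6 libraries. In 3 libraries the cells were treated with vehicle (DMSO) and in 3 with AZD4573, a selective inhibitor of the kinase CDK9. The labels give 4 h for AZD4573, no time for DMSO and no dose. CDK9 phosphorylates RNAP2 and lets it leave the promoter-proximal pause. The comparison asks how transcripts of the 3′-end machinery and of Integrator stood after this treatment.

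A pre-mRNA is cut downstream of its poly(A) signal by the cleavage and polyadenylation specificity factor (CPSF), aided by the cleavage stimulation factor (CstF) and the cleavage factors Im and IIm, and a poly(A) polymerase then adds the tail. The polymerase runs on until an exonuclease that degrades the downstream RNA, together with phosphatases that act on its C-terminal domain (CTD), helps to release it. Integrator cleaves the 3′ ends of small nuclear RNAs and terminates RNAP2 near promoters, and it carries a protein phosphatase that removes phosphates placed by CDK9.

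Total counts ranged from 70367303 to 76571157 with DMSO and from 52101868 to 63795185 with AZD4573. Levels are given as CPM, counts scaled by the library size after TMM normalization. A gene with 0 counts in the deepest library could have had a level of at most 0.0392 CPM (3 counts), a limit for counting error only. The members were far above this, with 244 to 24821 counts in any library, and all 38 passed the filter on low counts that left 17678 genes for testing. Nothing in the labels says that libraries of a group came from separate cultures, so the p-values measure the spread between these libraries, which may be technical. Of 8 T-cell markers, 7 were above 1 CPM in every library and CD2 was below 1 CPM in each. The summed T-cell markers stood at 814 to 849 CPM with DMSO and 1066 to 1104 CPM with AZD4573. Of the B-cell markers, MS4A1 was below 1 CPM in every library, whereas CD79A was present at a mean of 57.8 CPM with DMSO and 93.5 CPM with AZD4573. All 3 myeloid markers were below 1 CPM in every library and summed to at most 0.403 CPM. HBB was at 0, and EPCAM, an epithelial gene, was present at 149 to 167 CPM with DMSO and 132 to 136 CPM with AZD4573. These markers moved with the treatment, and their part in the results was not tested.

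Integrator transcripts were lower upon AZD4573 treatment almost throughout, whereas those of the polyadenylation machinery split. Of the 13 Integrator genes, 12 fell and none rose at an adjusted p under 0.05 (quasi-likelihood test of edgeR, p-values adjusted by the method of Benjamini and Hochberg over the whole table), and INTS1 did not pass. The background is broad, since 37.4% of all genes tested passed the same test downward and 37.3% upward. Against this, 92.3% of Integrator genes were lower and 0% higher, and 48.0% of the cleavage, polyadenylation and termination genes were lower (12 of 25) and 28.0% higher (7 of 25), with 6 that did not pass. Read against the background, the share of lower genes was well above it in Integrator and nearer to it in the polyadenylation set. Each AZD4573 library lay below each DMSO library for 12 Integrator genes and 13 polyadenylation genes (38.7% of all genes tested), and above it for 0 and 7 (39.0%), so that the groups were apart for 32 of the 38 members, where 77.8% of all genes tested were.

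The size of the changes gave the same order. The median log2 fold change, AZD4573 over DMSO, was -0.58 for Integrator and -0.09 for the polyadenylation genes, where all genes tested had a median of 0.03. Integrator values ran from -2.33 to 0.05, and 12 of 13 were below the median of all genes. The polyadenylation genes ran from -2.63 to 1.00, with 18 of 25 below it. With a fold change of at least 1.5 added to the rule, 6 Integrator genes were lower and none higher, and 8 polyadenylation genes were lower and 2 higher, where 23.7% of all genes were lower and 22.7% higher. The lists were not tested as lists, so these counts and medians are descriptions.

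**Figure D1:**
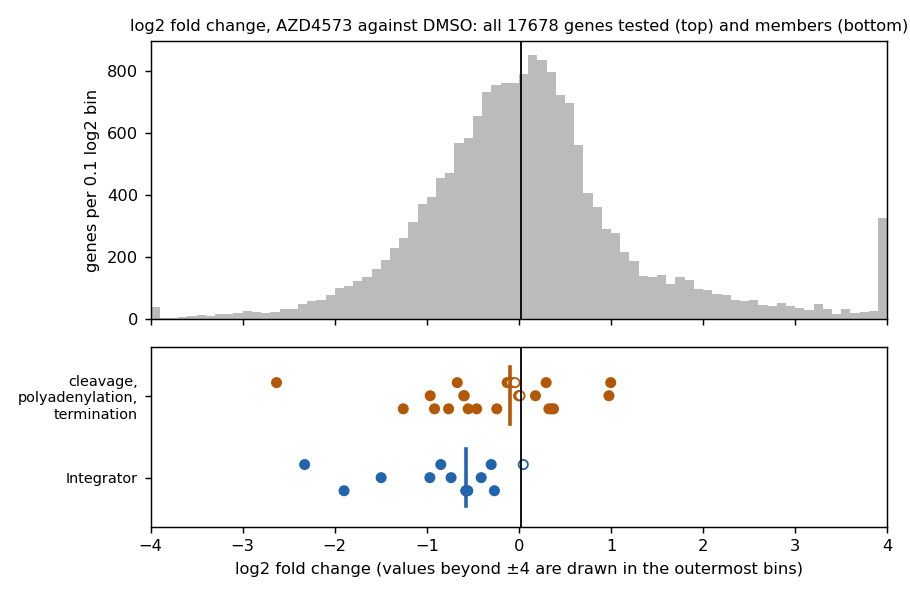
Log2 fold change (AZD4573 over DMSO) of the 17678 genes tested, as a histogram in bins of 0.1, above the 38 members, 1 point per gene (filled: adjusted p under 0.05; open: not). The black line marks the median of all genes (0.03) and the short coloured bars the medians of the polyadenylation genes (-0.09) and of Integrator (-0.58), whose points lie to the left but for INTS1.

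Summed over its members, the polyadenylation set held 3592, 3650 and 3617 CPM in the DMSO libraries and 3640, 3728 and 3643 CPM in the AZD4573 libraries, a ratio of means of 1.01. Integrator held 659, 664 and 660 CPM with DMSO and 463, 452 and 456 CPM with AZD4573, a ratio of 0.691. The summed level of the polyadenylation set therefore overlapped between groups and that of Integrator did not. The share of Integrator in the sum of both sets, which does not depend on how libraries are scaled, was 15.4% ± 0.0538 (SD, n = 3) with DMSO and 11.1% ± 0.239 (SD, n = 3) with AZD4573. In bulk libraries, fewer cells and less RNA per cell cannot be told apart, and all values are relative to the other transcripts of a library.

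That scaling matters for direction. Mitochondria make 13 mRNAs with a polymerase of their own, and these took 3.13% ± 0.0929 (SD, n = 3) of all counts in the DMSO libraries and 4.85% ± 0.162 (SD, n = 3) in the treated ones. When libraries were scaled to these mRNAs, the median of all genes tested moved to -0.71, and 11878 genes were lower and 2144 higher in place of 6606 and 6596. By that scaling all 13 Integrator genes were lower, and 23 polyadenylation genes were lower and 2, PCF11 and RBBP6, were higher. The shift was nearly the same for every member, so the order of the members was kept and only the zero line moved. Below, fold changes are on the scale of TMM unless stated otherwise.

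**Figure D2:**
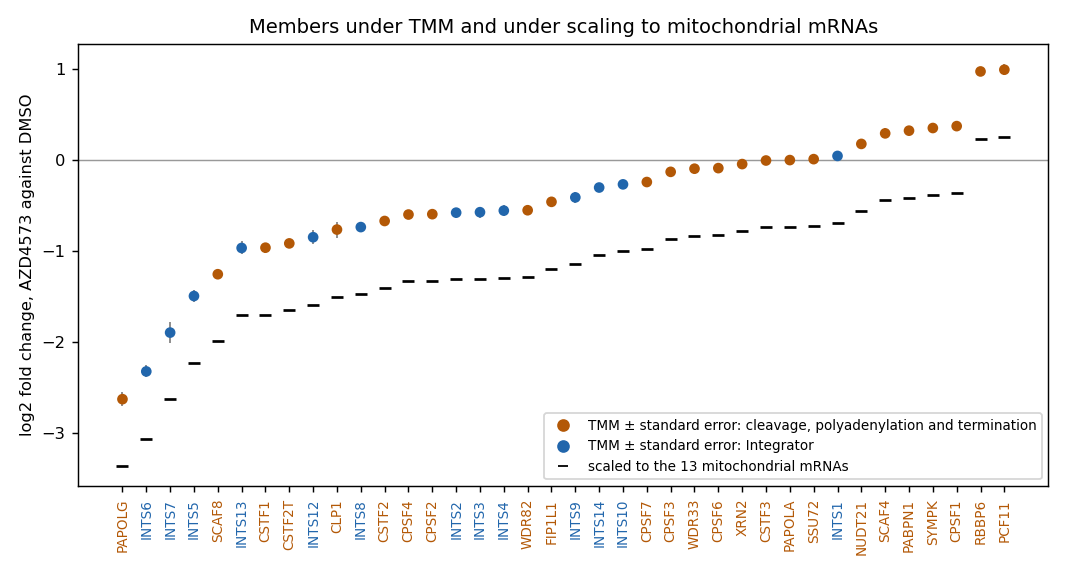
Log2 fold change of each of the 38 members, sorted, under TMM (points, with standard error, orange for polyadenylation genes and blue for Integrator) and under scaling to the 13 mitochondrial mRNAs (black bars). PCF11 and RBBP6 stay above 0 under both, whereas CPSF1, SYMPK, PABPN1, SCAF4, NUDT21, INTS1, SSU72 and PAPOLA are above 0 under TMM and below 0 under mitochondrial scaling.

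The 2 largest falls among the members were those of PAPOLG and INTS6, and the 2 largest rises those of PCF11 and RBBP6, both of the polyadenylation set. The transcript ends of PCF11, PAPOLG and INTS6 are shown because the poly(A) signal, the hexamer that CPSF recognises, is present in each. The sequences were read from GRCh38 at the end of the canonical GENCODE transcript, 5′ to 3′ in the sense of the transcript, with the hexamer in capitals. It lies 16, 16 and 17 bases from the transcript's end in the order shown.
PCF11, chr11:83185765-83185794, plus strand: atacatgtAATAAAtagaatgatgaagaaa
PAPOLG, chr2:60802057-60802086, plus strand: agtaatcaAATAAAattgctttgataaata
INTS6, chr13:51361577-51361606, minus strand: tccatggAATAAAttccttattgaaggtaa
Across the 38 members, AATAAA was found in the last 50 bases of the canonical transcript in 27 (71.1%), against 65.7% of the 13423 protein-coding genes tested. The common variant ATTAAA, without AATAAA, was found in 2 members (5.26%, against 14.9%), and neither in 9 (23.7%, against 19.4%). The polyadenylation genes (72.0% with AATAAA) and the Integrator genes (69.2%) were alike in this respect.

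Among the CPSF subunits that recognise the poly(A) signal, CPSF4 and FIP1L1 fell, CPSF1 rose and WDR33 did not pass the test. CPSF4, a zinc-finger protein that contacts the signal, stood at 111, 104 and 104 CPM with DMSO and at 74.7, 68.2 and 68.3 CPM with AZD4573 (log2 fold change -0.60 ± 0.051 (SE), adjusted p = 1.5e-07). FIP1L1, which binds U-rich RNA and recruits the poly(A) polymerase, had a log2 fold change of -0.46. CPSF1, the scaffold of this subcomplex, rose by 0.38 ± 0.052 (SE; adjusted p = 1.8e-05) from 286, 318 and 324 CPM to 382, 415 and 406 CPM, a direction that turned to -0.36 under mitochondrial scaling. WDR33, the other subunit that contacts the signal, had 169, 172 and 168 CPM with DMSO and 166, 160 and 150 CPM with AZD4573. Its groups did not overlap, yet its difference of -0.09 had an adjusted p of 0.075. It passed without DMSO replicate 1 (adjusted p = 0.0498) or AZD4573 replicate 1 (0.016), by DESeq2 (0.042), without a filter (0.024) and by library size only (0.0024).

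Of the subunits that make the cut, CPSF2 and CPSF3 fell and SYMPK rose. CPSF3, the endonuclease, had a log2 fold change of -0.13 with an adjusted p of 0.03, and it fell only from 58.6, 54.8 and 57.0 CPM to 50.6, 51.6 and 53.6 CPM. Its call was lost without DMSO replicate 1, DMSO replicate 3, AZD4573 replicate 1 or AZD4573 replicate 2 (adjusted p = 0.053, 0.055, 0.059 and 0.075 by edgeR) and with a minimum of 10 counts per library (0.10). CPSF2, the related protein that pairs with it, fell by 0.59 on the log2 scale to 66.3% of its DMSO level. SYMPK, the scaffold that holds them, rose by 0.35 (202, 224 and 222 CPM with DMSO, 273, 284 and 272 CPM with AZD4573), with -0.38 under mitochondrial scaling. The groups did not overlap in any of these 3 genes, as in 77.8% of all genes tested.

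Cleavage factor Im, which binds UGUA motifs upstream of the cut and helps to select among poly(A) sites, had 1 gene that rose, 1 that fell and 1 that did not pass. NUDT21, its RNA-binding subunit, rose by 0.18 on the log2 scale (205, 201 and 192 CPM against 221, 227 and 230 CPM), a call that was lost by library size only (0.075, adjusted p = 0.083) and a direction that turned to -0.56 under mitochondrial scaling. CPSF7 fell by 0.24 and its alternative, CPSF6, had a difference of -0.09 that did not pass (adjusted p = 0.091), its groups overlapping. CPSF6 passed without DMSO replicate 1 (adjusted p = 0.039) or AZD4573 replicate 1 (0.012), without a filter (0.029) and by library size only (0.0029). The ratio of CPSF6 to CPSF7 counts within a library was 1.25 ± 0.0482 (SD, n = 3) with DMSO and 1.39 ± 0.0478 (SD, n = 3) with AZD4573, a difference of 0.15 on the log2 scale that reached the smallest exact permutation p of 3 against 3 libraries, 0.1 (two-sided). NUDT21 shares 45.9% of its exon bases with an unnamed gene on the same strand that holds far fewer counts, and reads could be split between them.

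In contrast, 3 of the 4 genes of the cleavage stimulation factor, which binds the GU-rich element downstream of the cut, fell by at least 1.5-fold. Of all genes tested, 23.7% did. CSTF1 stood at 50.1, 50.0 and 48.1 CPM with DMSO and at 24.1, 26.1 and 25.8 CPM with AZD4573, 51.3% of the control level (log2 fold change -0.96 ± 0.054 (SE), adjusted p = 2.4e-09). CSTF2T, a single-exon gene that encodes a second form of the RNA-binding subunit, fell from 78.6, 76.3 and 77.2 CPM to 40.9, 42.2 and 39.9 CPM (-0.92). CSTF2, the X-linked gene of the same subunit with 16 exon blocks, fell from 47.3, 46.5 and 46.8 CPM to 30.9, 28.4 and 29.2 CPM (-0.67). In all 3 genes the groups were far apart relative to the spread between libraries. CSTF3, the subunit that joins the others, had 55.9, 56.4 and 55.0 CPM with DMSO and 59.2, 55.0 and 52.7 CPM with AZD4573, groups that overlap (adjusted p = 0.96). It shares 14.5% of its exon bases with TCP11L1 and LINC00294 on the opposite strand (log2 fold changes -0.70 and -0.74). The counting ignored strand, and the part of shared reads in CSTF3 was not tested. The ratio of CSTF2 to CSTF2T within a library was 0.606 ± 0.0042 (SD, n = 3) with DMSO and 0.720 ± 0.0413 (SD, n = 3) with AZD4573, 0.25 higher on the log2 scale (exact permutation p = 0.1, two-sided, the smallest that 3 against 3 libraries allow).

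The genes of cleavage factor IIm went in opposite directions. PCF11 (chr11:83156988-83187451, plus strand), which binds the CTD of RNAP2 and links cleavage to termination, stood at 53.0, 58.3 and 57.4 CPM with DMSO and at 102, 117 and 118 CPM with AZD4573. Each treated library was well above each control, at 199% of the DMSO level (log2 fold change 1.00 ± 0.062 (SE), adjusted p = 6.6e-09), and the difference kept its sign under mitochondrial scaling (0.26). CLP1 (chr11:57648188-57661865, plus strand), an RNA kinase and its partner, had 22.6, 21.5 and 18.8 CPM with DMSO and 11.04, 12.4 and 13.5 CPM with AZD4573, and fell by 0.76 ± 0.089 (SE; adjusted p = 3.3e-06). Of the exon bases of PCF11, 18.9% are shared with other genes, chiefly PCF11-AS1, which had 0 counts in every library.

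The poly(A) polymerases diverged as well. PAPOLG (chr2:60756253-60802086, plus strand), a nuclear poly(A) polymerase, showed the largest fall of all members. It stood at 26.8, 28.1 and 28.7 CPM with DMSO and at 4.83, 4.28 and 4.41 CPM with AZD4573, 16.1% of the control level (log2 fold change -2.63 ± 0.075 (SE), adjusted p = 1.8e-11). PAPOLA, the main poly(A) polymerase of the nucleus, had groups that overlapped, with 242, 229 and 223 CPM with DMSO and 234, 228 and 233 CPM with AZD4573 (log2 fold change 0.00, adjusted p = 0.98). Within a library, where scaling plays no part, the ratio of PAPOLA to PAPOLG counts was 9.03, 8.14 and 7.77 with DMSO and 48.4, 53.3 and 53.0 with AZD4573, a 6.21-fold difference. The exact permutation test (two-sided) gave p = 0.1 for this ratio, the smallest value that 3 against 3 libraries allow.

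The other genes of this step rose. RBBP6 (chr16:24537693-24572863, plus strand), which activates cleavage, stood at 167, 170 and 171 CPM with DMSO and at 315, 351 and 334 CPM with AZD4573, 197% of the control level (log2 fold change 0.98 ± 0.046 (SE), adjusted p = 5e-10). As with PCF11, its groups were far apart and the difference stayed positive under mitochondrial scaling (0.24). PABPN1, the nuclear poly(A)-binding protein that controls tail length, rose by 0.33 from 246, 253 and 255 CPM to 303, 323 and 318 CPM, with -0.41 under mitochondrial scaling. It shares 39.3% of its exon bases with the readthrough gene BCL2L2-PABPN1, which held at most 16 counts in a library.

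Of the termination genes, SCAF8 and WDR82 fell, SCAF4 rose, and XRN2 and SSU72 did not pass. SCAF8 (chr6:154733378-154834244, plus strand) stood at 163, 165 and 168 CPM with DMSO and at 71.6, 69.1 and 67.0 CPM with AZD4573, 41.9% of the control level (log2 fold change -1.26 ± 0.043 (SE), adjusted p = 5.4e-11). SCAF4, its relative, rose by 0.30 from 126, 139 and 141 CPM to 161, 178 and 160 CPM, a direction that turned to -0.44 under mitochondrial scaling. Both proteins bind the CTD and act as anti-terminators that suppress early poly(A) sites. Their ratio within a library, SCAF4 to SCAF8, was 0.771, 0.843 and 0.844 with DMSO and 2.26, 2.57 and 2.38 with AZD4573, so the order of these relatives was inverted. The difference was 2.93-fold (exact permutation p = 0.1, two-sided, the smallest possible).

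XRN2, the exonuclease that degrades RNA behind the cut, had 220, 220 and 213 CPM with DMSO and 208, 214 and 213 CPM with AZD4573 (log2 fold change -0.04, adjusted p = 0.33; by library size only -0.15, adjusted p = 0.0022). SSU72, a CTD phosphatase, was as close between groups, with a log2 fold change of 0.01 and an adjusted p of 0.81. WDR82, a partner of phosphatase and restrictor complexes that stop RNAP2, fell by 0.55 to 68.2% of its DMSO level. The values of XRN2 and SSU72 overlapped between groups, and those of WDR82 did not.

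**Figure D3:**
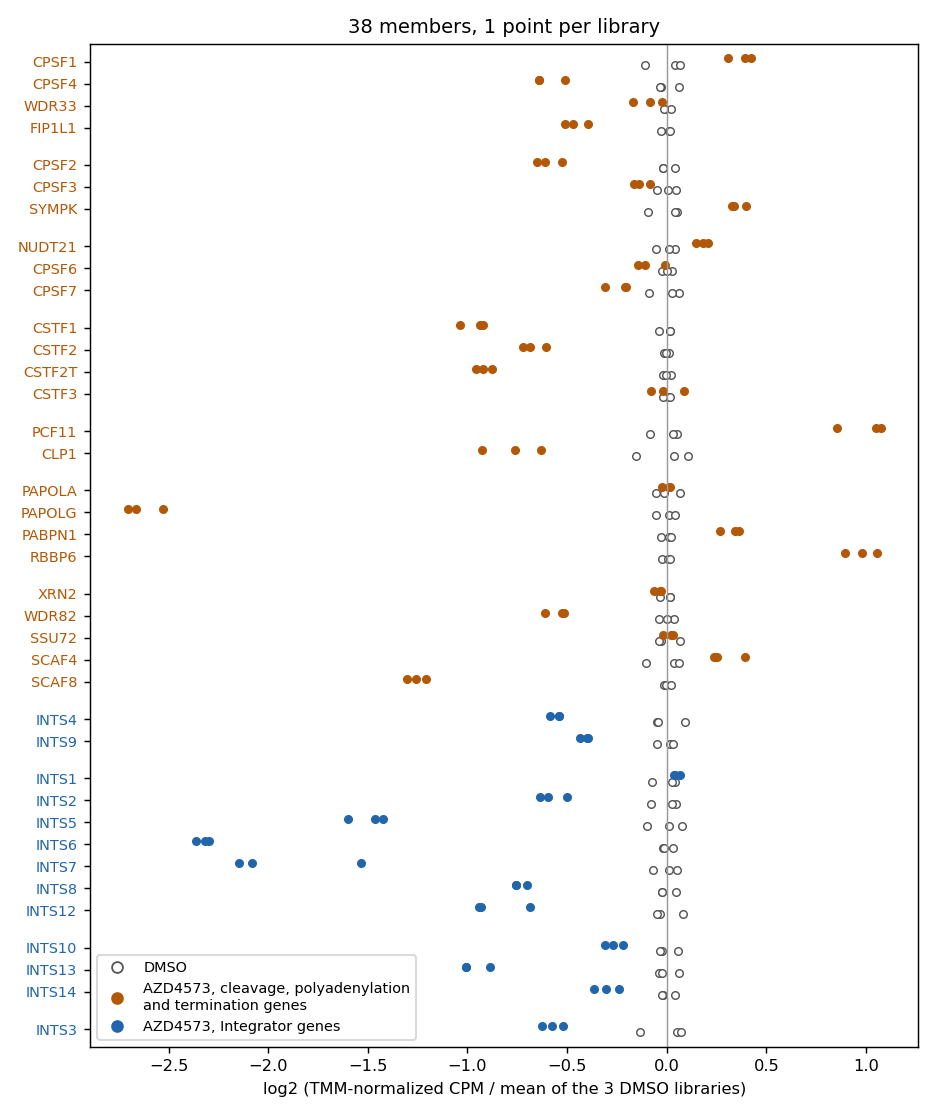
Each of the 38 members, 1 point per library, as log2 of TMM-normalized CPM over the mean of the 3 DMSO libraries, grouped by role within the polyadenylation machinery (orange) and Integrator (blue); open points are DMSO. PAPOLG (near -2.63), INTS6 (-2.33) and INTS7 (-1.90) lie farthest left, PCF11 (1.00) and RBBP6 (0.98) farthest right, and the AZD4573 point of INTS7 in replicate 1 stands apart from the other 2.

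Within Integrator, the largest falls were in the core and phosphatase module, where 6 of 7 genes fell, 5 of them by at least 1.5-fold. Of all genes tested, 37.4% were lower, and 23.7% were lower by at least 1.5-fold. INTS6 (chr13:51354077-51454264, minus strand), a subunit that holds the phosphatase in the complex, stood at 28.3, 28.5 and 29.3 CPM with DMSO and at 5.83, 5.75 and 5.58 CPM with AZD4573, 19.9% of the control level (log2 fold change -2.33 ± 0.066 (SE), adjusted p = 1.8e-11). INTS7 (chr1:211940399-212035557, minus strand), a subunit of the backbone, had 67.8, 65.9 and 62.3 CPM with DMSO and 22.6, 15.4 and 14.8 CPM with AZD4573, with a log2 fold change of -1.90 ± 0.119 (SE; adjusted p = 7e-09). INTS5 (chr11:62646848-62653302, minus strand) fell to 35.5% of its level, from 39.8, 37.98 and 35.2 CPM to 14.02, 13.6 and 12.4 CPM (-1.50 ± 0.069 (SE), adjusted p = 4.6e-10). The groups were far apart in all 3 genes. The spread was largest in INTS7, whose AZD4573 replicate 1 lay 0.58 above the other 2 on the log2 scale, and without any single library its log2 fold change ranged from -2.12 to -1.79.

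INTS12, which carries a PHD finger, fell from 23.8, 22.0 and 21.8 CPM to 11.7, 11.8 and 13.99 CPM (log2 fold change -0.85), INTS8, the subunit that contacts the phosphatase, fell to 59.99% of its DMSO level (-0.74), and INTS2 fell to 67.0% (-0.58). INTS8 shares 1629 of its 7866 exon bases with CCNE2 on the opposite strand, a gene that fell by 2.10 on the log2 scale, and INTS12 shares 21.7% of its bases with ARHGEF38 and GSTCD, the latter of which rose by 0.49. The counting ignored strand, so reads of these pairs cannot be told apart in the shared parts. INTS1, the largest scaffold subunit, was the exception to the fall, with 115, 125 and 123 CPM with DMSO and 124, 126 and 124 CPM with AZD4573 (log2 fold change 0.05, adjusted p = 0.35), and it turned to -0.69 under mitochondrial scaling. Its groups overlapped, and it was the only 1 of the 13 not shown to differ on the TMM scale.

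The listed genes of the other modules all fell. In the cleavage module, INTS4 fell by 0.56 on the log2 scale (23.3, 23.4 and 25.7 CPM against 16.6, 16.6 and 16.1 CPM) and INTS9 by 0.41. INTS11, the endonuclease of this module, is not on the list and rose by 0.24. In the module of INTS10, INTS13 and INTS14, which is held to tether the complex to its targets, INTS13 fell to 51.2% of its DMSO level (18.7, 17.4 and 17.7 CPM against 9.70, 8.93 and 8.94 CPM), while INTS10 and INTS14 fell by 0.27 and 0.30. INTS3, which also serves in the SOSS complex that binds single-stranded DNA, fell by 0.57 to 67.2%. The groups of these 6 listed genes did not overlap, as in 77.8% of all genes tested. None of the 13 Integrator genes on the list passed the test upward under any scaling that was tried.

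The list leaves out INTS11 and INTS15, which were read among 37 associated factors of the same pathway. INTS11, the endonuclease of Integrator, rose by 0.24 on the log2 scale, from 154, 160 and 162 CPM to 188, 185 and 189 CPM (adjusted p = 0.00011), and turned to -0.50 under mitochondrial scaling. INTS15, listed in the file under an older name, fell from 39.99, 38 and 37.5 CPM to 14.3, 13.8 and 13.97 CPM (log2 fold change -1.46 ± 0.058 (SE), adjusted p = 1.4e-10). With both added, 13 of 15 Integrator genes were lower and 1 higher, with the median unchanged at -0.58.

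To compare levels between genes, CPM were divided by the length of the merged exons of all annotated transcripts. That length can exceed the transcript made in these cells, so rankings by it depend on the annotation. With DMSO, the median level was 18.8 CPM per kb of exon for the polyadenylation genes and 6.12 CPM per kb for Integrator, and with AZD4573 these medians were 16.6 and 3.92 CPM per kb. By this measure PABPN1 (68.1 CPM per kb) and XRN2 (63.9) had the highest levels with DMSO, and INTS6 (1.13) and INTS4 (1.87) the lowest. The merged exons span 25.5 kb in INTS6 and 12.9 kb in INTS4, against 3.06 kb in INTS13. Without division by length, INTS6 (28.7 CPM) and INTS4 (24.1 CPM) stood above INTS13 (17.9 CPM) with DMSO. With AZD4573, INTS6 stood at 0.224 and PAPOLG at 0.531 CPM per kb, below every other member.

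**Figure D4:**
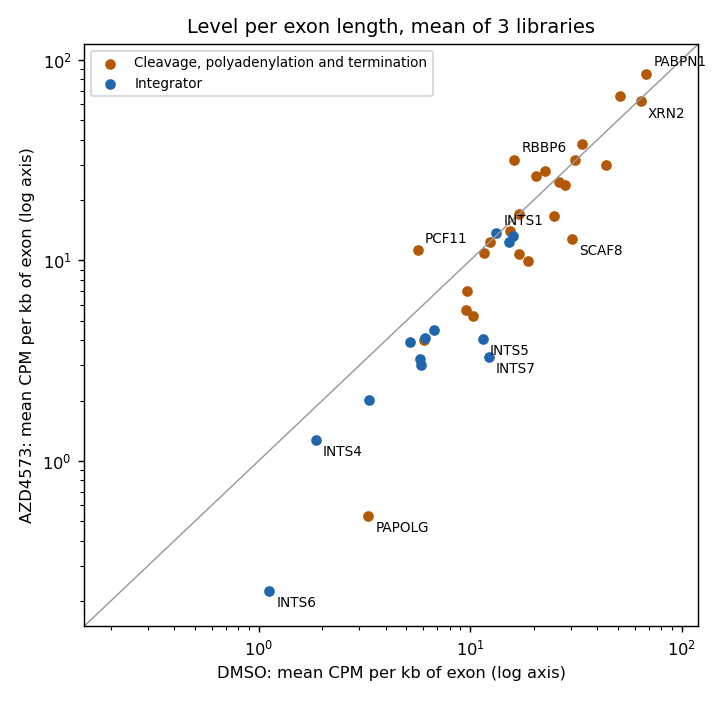
Mean level of each member in TMM-normalized CPM per kb of exon, DMSO (horizontal) against AZD4573 (vertical), both on log axes, with the line of equal level in grey. Integrator genes (blue) have the lower median level but mix with the polyadenylation genes. They lie under the line except INTS1, and PAPOLG and INTS6 fall farthest under it.

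Members with lower CPM with DMSO tended to have the lower fold changes. Spearman's rho between the mean DMSO level in CPM and the log2 fold change was 0.64 across the 38 members, 0.55 within the 25 polyadenylation genes and 0.41 within the 13 Integrator genes, whereas it was -0.20 across 13423 protein-coding genes tested. The points share libraries, and the DMSO level enters both measures, so these are descriptions. Gene length showed little relation by the same measure. The rho between genomic span and log2 fold change was -0.10 across members and -0.03 across protein-coding genes, and between the number of exon blocks and log2 fold change it was 0.12 and 0.06. The median span was 34.8 kb for the polyadenylation genes and 62.7 kb for Integrator.

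RefSeq promoter sequences (GRCh38.p14, 250 bases before to 50 bases after the start) matched 32 of the 38 members. Each motif was searched by its letters on both strands, and matches of different motifs may overlap. TATAAA was found in 0 members, against 5.94% of the 11299 promoters of genes tested and 12.0% of all 27305 promoters. CCAAT was found in 46.9% of members (36.5% of genes tested, 35.7% of all), GGGCGG in 71.9% (68.1% and 44.6%) and CCGGAAG in 28.1% (19.0% and 10.7%). TGACGTCA was found in 5 members, CSTF3, RBBP6, XRN2, WDR82 and INTS7, which is 15.6% against 3.29% of genes tested and 1.98% of all promoters. Of these 5, RBBP6 rose, WDR82 and INTS7 fell and the other 2 did not pass, so genes with this motif were found on both sides of 0. The promoters of the members with the 2 largest rises and the 2 largest falls are shown 5′ to 3′, with every match to the motifs above, on either strand, in capitals.
PCF11, chr11:83156881-83157180, plus strand: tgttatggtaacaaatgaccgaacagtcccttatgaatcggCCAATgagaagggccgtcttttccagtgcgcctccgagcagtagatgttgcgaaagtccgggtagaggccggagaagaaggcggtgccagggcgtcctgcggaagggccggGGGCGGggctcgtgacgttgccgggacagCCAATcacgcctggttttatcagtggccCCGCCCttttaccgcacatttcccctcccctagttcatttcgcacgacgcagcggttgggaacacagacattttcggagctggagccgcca
RBBP6, chr16:24539316-24539615, plus strand: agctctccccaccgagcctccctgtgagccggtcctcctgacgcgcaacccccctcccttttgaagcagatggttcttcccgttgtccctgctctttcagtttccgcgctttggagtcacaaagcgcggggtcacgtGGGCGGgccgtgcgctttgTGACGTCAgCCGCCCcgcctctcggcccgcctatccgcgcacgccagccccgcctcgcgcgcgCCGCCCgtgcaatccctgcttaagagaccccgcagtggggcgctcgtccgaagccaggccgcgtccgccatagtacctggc
PAPOLG, chr2:60756018-60756317, plus strand: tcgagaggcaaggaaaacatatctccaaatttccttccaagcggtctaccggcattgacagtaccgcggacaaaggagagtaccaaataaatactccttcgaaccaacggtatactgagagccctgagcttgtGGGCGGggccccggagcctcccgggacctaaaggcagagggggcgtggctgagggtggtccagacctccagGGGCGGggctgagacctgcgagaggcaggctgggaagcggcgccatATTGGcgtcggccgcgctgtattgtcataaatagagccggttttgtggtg
INTS6, chr13:51452987-51453286, minus strand: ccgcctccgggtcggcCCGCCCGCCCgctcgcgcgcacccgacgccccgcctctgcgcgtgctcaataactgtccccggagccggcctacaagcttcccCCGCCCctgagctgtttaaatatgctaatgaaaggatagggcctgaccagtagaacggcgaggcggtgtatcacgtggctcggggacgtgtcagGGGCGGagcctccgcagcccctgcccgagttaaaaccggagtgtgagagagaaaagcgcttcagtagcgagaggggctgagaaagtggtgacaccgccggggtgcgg
All 4 hold GGGCGG, whichever way the gene moved, PCF11 and PAPOLG also hold CCAAT, and RBBP6 holds TGACGTCA. A match of letters is not a site bound in these cells.

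The wider pathway was read from genes that act beside the members. Of the 37 associated factors, all of which passed the filter, 27 were lower (73.0%), 5 were higher (13.5%) and 5 did not pass, beside 37.4% and 37.3% of all genes tested, and their median log2 fold change was -0.40. PHF3, which binds the elongating RNAP2, showed the largest fall, from 198, 195 and 200 CPM to 45.2, 33.8 and 32.6 CPM (-2.41 ± 0.094 (SE), adjusted p = 1.3e-10). INTS15 followed, and then LSM11, a component of the U7 snRNP that matures histone mRNAs, which fell from 16.1, 16.01 and 15.7 CPM to 6.44, 6.86 and 6.19 CPM (-1.29). The largest rise was that of RPAP2, a CTD phosphatase, from 24.8, 24.7 and 26.5 CPM to 51.0, 47.6 and 50.7 CPM (0.97 ± 0.055 (SE), adjusted p = 2.8e-09), which stayed positive under mitochondrial scaling (0.24). PABPC1, the cytoplasmic poly(A)-binding protein, rose by 0.83 to 178% of its DMSO level (0.09 under mitochondrial scaling, where the adjusted p was 0.12), and PPP1CA, a catalytic subunit of protein phosphatase 1, rose by 0.30 and turned to -0.43.

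By role, all 5 factors of histone pre-mRNA 3′-end formation and all 4 of the cap-binding complex and its ARS2 partner were lower, although NCBP2 only at an adjusted p of 0.047, a call that was lost without DMSO replicate 2, DMSO replicate 3, AZD4573 replicate 2 or AZD4573 replicate 3 (adjusted p of at most 0.11 by edgeR). Of 8 genes of PP1-PNUTS, the restrictor and related release factors, 6 were lower and 2 higher. Of 8 Integrator partners, 5 were lower and 1, INTS11, higher. Of 5 CTD-binding proteins and CTD phosphatases, 2 were lower and 1 higher, and of 7 other poly(A) enzymes and binders, 5 were lower and 1 higher. Beside these counts, 37.4% of all genes tested were lower and 37.3% higher. The share of lower genes in the CTD group (40.0%) was near that background.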

How the data were processed

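Bulk RNA-seq of 3 DMSO and 3 AZD4573 libraries was analysed. The authors trimmed reads with Cutadapt 2.3, aligned them to GRCh38 with STAR 2.7.8a and estimated counts per gene with RSEM 1.3.3 at default settings, which ignore strand. The labels describe poly(A) selection and the supplemental methods rRNA depletion. The deposited values are expected counts, given as whole numbers without normalization. Beside the 61541 genes, 5 entries are reporter or spike sequences, which were not removed before the fit. The quasi-likelihood test of edgeR 4.0.16 (R 4.3.3) compared the groups after TMM normalization and edgeR's low-count filter (minimum count 10), with no replicate block, and p-values of the 17678 genes tested were adjusted after Benjamini and Hochberg, with a threshold of 0.05. Within-library ratios were compared by exact permutation. The procedure was tested on simulated counts in which few genes changed, as many up as down. That could not test the scaling under changes as broad as those seen here. No library was a copy of another in its group, since chi-square values of pairs, divided by their degrees of freedom, were 5.51 to 20.5. Exons, spans and transcript ends came from GENCODE release 44, and promoters from RefSeq on GRCh38.p14.

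The genes named were all 38 members and, of the associated factors, the 3 largest falls and 3 largest rises with an adjusted p under 0.05; genes named beside these (INTS11, NCBP2 and exon-sharing neighbours) were chosen after their values were seen. INTS15 was matched by gene ID. The members, lists and tests were chosen with earlier results of these data known. Alternatives were RLE factors, library size only, scaling to the 13 mitochondrial mRNAs, no filter or a minimum of 10 counts per library, leaving out libraries singly, the replicate number as a block, DESeq2 1.42.0, and an added fold criterion of 1.5. Errors of CPM-based values are SD over libraries. A marker and a transcript end are not reported here.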

Additional observations from a re-analysis of the deposited data

How the results depend on the processing

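Over 13 alternatives, 524 of 572 values of the 44 named genes kept their direction and call, 7 lost the call, 14 gained one and 27 changed sign. Direction and call held in every alternative for 29 genes, and for 35 apart from mitochondrial scaling; the cause of the differences was not tested unless the setting itself shows it. Mitochondrial scaling gave 11878 genes lower and 2144 higher, 23 polyadenylation genes lower and 2 higher, and 1 associated factor higher. It turned CPSF1 to -0.36, SYMPK to -0.38, NUDT21 to -0.56, PAPOLA to -0.74, PABPN1 to -0.41, SSU72 to -0.73, SCAF4 to -0.44, INTS1 to -0.69 and PPP1CA to -0.43. Other sign changes were in genes near 0: library size only gave PAPOLA -0.10 (adjusted p = 0.031 by edgeR), SSU72 -0.092 and INTS1 -0.058, no filter gave PAPOLA -0.041 and SSU72 -0.031, DESeq2 gave PAPOLA -0.017 and SSU72 -0.0066, RLE factors gave CSTF3 0.0011 and at least 10 counts in every library gave CSTF3 0.034. The fold criterion left 4191 genes lower and 4012 higher, 2 polyadenylation genes higher, 6 Integrator genes lower, and 15 associated factors lower and 2 higher. At least 10 counts in every library gave 8 associated factors higher in place of 5. Among members that share under 10% of their exon bases, an alternative chosen after seeing the data, 4 polyadenylation genes were higher. This rule makes the set smaller, and NUDT21, PCF11 and PABPN1 are among the genes it leaves out. The count is therefore not out of all 25 genes and does not show a lower share.

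The median log2 fold change relative to all genes was -0.12 for the polyadenylation set, -0.60 for Integrator and -0.43 for the associated factors. It was -0.25, -0.73 and -0.56 without a filter, -0.072, -0.56 and -0.38 under the minimum of 10 counts per library, and -0.25, -0.73 and -0.56 with DESeq2. With each library left out in turn it ranged from -0.16 to -0.087 for the polyadenylation set, -0.68 to -0.58 for Integrator and -0.44 to -0.41 for the associated factors, CSTF3 ranged from -0.053 to 0.029, PAPOLA from -0.037 to 0.026 and SSU72 from -0.020 to 0.036. In these runs 12 Integrator genes were lower every time, and 11 to 13 polyadenylation genes were lower.

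Same-numbered libraries showed no clear shared deviation (correlations -0.0077, 0.089 and -0.050), and libraries of different number gave -0.079 to 0.086. A weak pairing could go unseen by this measure, and the labels do not say whether the numbers pair the samples. A fit that blocks on the replicate number called 6524 genes lower and 6447 higher, and in it 12 polyadenylation genes were lower and 7 higher, 12 Integrator genes were lower and 0 higher, and 26 associated factors were lower and 5 higher. The lowest count of a member in any library was 244, so all members were detected. Each AZD4573 library was shallower than each DMSO library, and the part of depth in the results was not tested.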

Other observations

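Antisense, divergent and pseudogene relatives of the members were also present in the counts, at low levels. INTS6-AS1, a long noncoding RNA transcribed from the strand opposite INTS6, had 49, 62 and 51 counts with DMSO and 88, 111 and 132 counts with AZD4573 and rose by 1.43 ± 0.202 on the log2 scale (SE; adjusted p = 2.1e-05, quasi-likelihood test of edgeR, Benjamini-Hochberg adjustment), while INTS6 itself fell. It shares 243 of the 25509 exon bases of INTS6, and the counts carry no strand information in that stretch. CSTF3-DT, divergent from CSTF3, rose by 1.04 (adjusted p = 0.0079, same test), from 57, 32 and 23 counts to 44, 60 and 69 counts. Its raw counts, from libraries of unequal depth, overlapped between groups. Its CPM did not, at 0.726, 0.437 and 0.312 with DMSO and 0.864, 1.05 and 1.13 with AZD4573. PAPOLA-DT had a log2 fold change of -0.37 (adjusted p = 0.20). The pseudogenes of CPSF1, SSU72, PABPN1, WDR82, INTS4 and INTS6 that the table lists held at most 4 counts in any library, so few reads of these members were assigned to such copies. These relatives were named after their values were seen.

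Neighbours that share exons with a member moved in both directions. TIAM2, which shares 713 exon bases with SCAF8 on the same strand, rose by 1.08 (adjusted p = 1.1e-05) while SCAF8 fell. CCNE2, which encodes cyclin E2 and lies opposite INTS8, fell from 30.02, 28.8 and 27.8 CPM to 8.11, 6.38 and 5.75 CPM. The share of INTS8 reads that belong to CCNE2 was not tested.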
